A study of Mus musculus with 5 samples.

Results

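Genes of cardiac muscle were followed in lungs of bleomycin-treated 129svJ mice, an inbred strain, on 2-colour arrays. Bleomycin, an antitumour antibiotic that breaks DNA, serves in mice as a model agent of lung injury. Per the labels, the lung RNA of 1 treated mouse, numbered 1 to 5, was amplified and set against a pool of amplified lung RNA of control 129svJ mice on each of 5 arrays. The labels state no dose, route, time after treatment, sex or age, and no number of mice in the pool. The 8 genes Myl4, Myl7, Actc1, Myh6, Tnnc1, Mybpc3, Nppb and Sln were taken by symbol, out of 10081 genes and unnamed features that had values on 4 arrays or more. All 8 met that minimum, 6 of them with values on 5 arrays and 2, Actc1 and Sln, with values on 4. Each was measured by 1 feature. They were chosen with the ratios of this same comparison in view, so their ratios are given as a description and without a test.

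The deposited values are log ratios between the channels, read here as log2 because no source names the base. Each array was centred on its median. In the labels the mouse stands before the pool, but no dyes are given, so whether a positive value means more RNA in the mouse or in the pool is not settled. Values are therefore given by size and by side of 0. Pairs of arrays correlated positively across genes (Pearson's r from 0.732 to 0.857), so none was turned against the others. Genes are not independent replicates, and the arrays share the pool. Arrays held values for 11350 to 12083 of 17280 features. The number of arrays limits the precision. No signal intensities were used here, so low signal cannot be told from a small difference. The lung genes Sftpc, Sftpa1, Scgb1a1, Pecam1 and Ager had values on all 5 arrays. In whole lung, fewer cells of a type and less RNA per cell cannot be told apart.

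Cardiac muscle contracts when calcium released from the sarcoplasmic reticulum binds troponin C on the thin filament and lets myosin heads pull on cardiac actin. Atrial and ventricular muscle use partly different subunits: Myl4 and Myl7 encode the essential and regulatory myosin light chains of the atria. Myh6 encodes the alpha myosin heavy chain of the adult mouse heart, Actc1 cardiac actin, Mybpc3 the cardiac myosin-binding protein C, and Tnnc1 the troponin C shared by heart and slow skeletal muscle. Sln encodes sarcolipin, an atrial peptide that inhibits the calcium pump, and Nppb the hormone precursor of brain natriuretic peptide, which is induced by stretch. In mice and rats, a sheath of cardiac muscle continuous with the left atrium surrounds the pulmonary veins into the lung.

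Promoter sequence is shown for Myl7, Actc1 and Myh6, which lay on one side of 0, and for Nppb, which lay on the other, so that the letters upstream of both can be compared. Sequences are from RefSeq, build GRCm38.p6, and cover the 250 bases before the start site, 5' to 3' on the gene's strand. Of the 8 genes, 7 matched an entry. Capitals mark matches on either strand to motifs of factors of muscle and heart genes, namely the CArG box, the MEF2 site, the GATA site (AGATAA or TGATAA), the M-CAT element (CATTCC) and the NKX2-5 element (AAGTG), and to the TATA box (TATAAA). The regions are chr11:5898783-5899032 on the minus strand for Myl7, chr2:114052876-114053125 on the minus strand for Actc1, chr14:54966608-54966857 on the minus strand for Myh6 and chr4:147985650-147985899 on the plus strand for Nppb.
Myl7: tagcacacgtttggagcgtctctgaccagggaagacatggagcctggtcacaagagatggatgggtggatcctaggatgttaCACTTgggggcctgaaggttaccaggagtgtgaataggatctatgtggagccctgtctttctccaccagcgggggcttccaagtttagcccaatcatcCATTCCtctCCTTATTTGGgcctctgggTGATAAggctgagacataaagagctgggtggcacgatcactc
Actc1: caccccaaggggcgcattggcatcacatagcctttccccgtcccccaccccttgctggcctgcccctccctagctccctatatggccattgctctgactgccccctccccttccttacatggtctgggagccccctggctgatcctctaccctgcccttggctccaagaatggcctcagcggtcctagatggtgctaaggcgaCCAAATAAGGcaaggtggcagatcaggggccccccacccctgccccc
Myh6: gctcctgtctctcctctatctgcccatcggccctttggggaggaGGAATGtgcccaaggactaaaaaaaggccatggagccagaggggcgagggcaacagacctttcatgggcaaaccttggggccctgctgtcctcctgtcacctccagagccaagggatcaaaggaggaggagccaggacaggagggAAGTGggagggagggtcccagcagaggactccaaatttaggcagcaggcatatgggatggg
Nppb: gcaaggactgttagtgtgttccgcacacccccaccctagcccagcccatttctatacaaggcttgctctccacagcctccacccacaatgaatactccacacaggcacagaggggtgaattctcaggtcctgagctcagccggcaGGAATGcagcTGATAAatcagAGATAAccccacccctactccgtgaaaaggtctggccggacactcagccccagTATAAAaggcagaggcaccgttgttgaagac

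A CArG box, the site bound by serum response factor, was found in Myl7 (CCTTATTTGG, from -61 to -52 relative to the start site) and in Actc1 (CCAAATAAGG, from -47 to -38). Of all 32851 promoter windows of that length, 1.47% held one. The M-CAT element was found in Myl7, Myh6, Tnnc1 and Nppb, and in 12.6% of all windows. The GATA site was found in Myl7, Mybpc3 and Nppb, and in 16.6% of all windows; Nppb held 2 of them. The NKX2-5 element was found in Myl4, Myl7, Myh6 and Mybpc3, and in 40.7% of all windows. Mybpc3 alone of the 7 held a MEF2 site (2.92% of all windows) and Nppb alone a TATA box (12.4%). No marked matches overlapped. A match is a run of letters in the window and not a measured binding site.

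The 8 genes did not share one side of 0. Myh6, Myl4, Actc1 and Myl7 lay above 0 in every mouse measured, Nppb lay below 0 in every mouse, and Mybpc3 and Sln stood near 0. Tnnc1 was above 0 in 4 mice and near 0 in mouse 1. Thus 4 of 8 were above 0 on every array, beside 29.3% of all genes and unnamed features, and 1 was below 0 on every array, beside 28% of them. These shares are a background only, since the genes were chosen on the same ratios. Of the 3 genes most tied to atrial muscle, Myl4 and Myl7 were above 0 and Sln was near it. Low signal of Sln cannot be told from a small difference, so whether Sln differed from Myl4 and Myl7 is not settled.

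**Figure D1:**
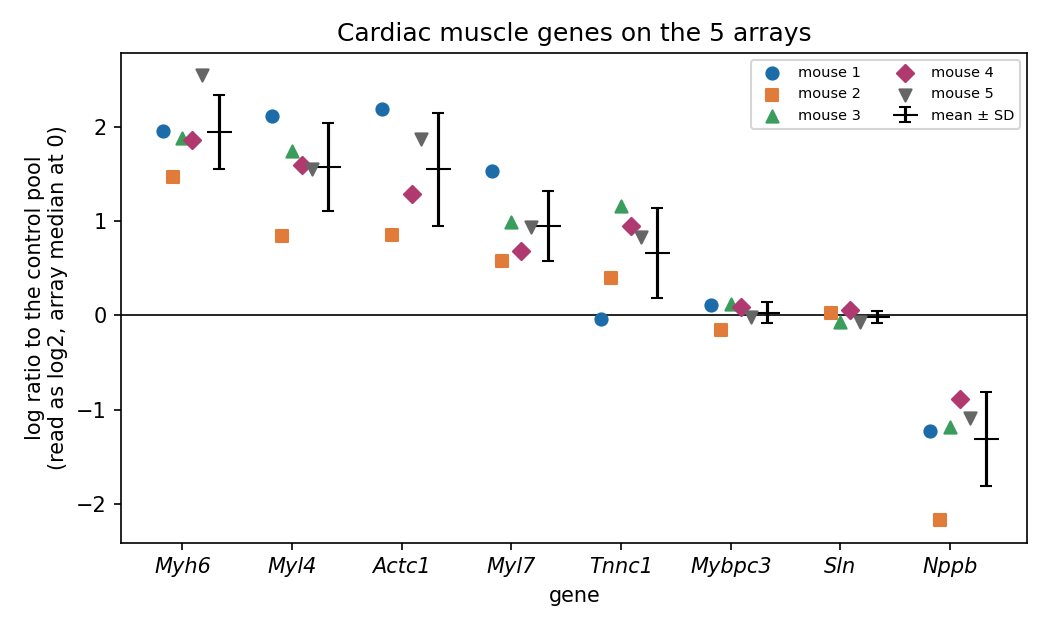
Log ratios of the 8 cardiac muscle genes (horizontal axis) to the control pool, read as log2 with the array median at 0 (vertical axis). Each symbol is 1 mouse and the black bar is the mean with its SD. Myh6, Myl4, Actc1 and Myl7 lie above 0 in every mouse measured, Nppb lies below 0 in all 5, and Mybpc3 and Sln lie near 0.

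Among the motor proteins, the heavy chain Myh6 had log2 ratios of 1.96, 1.47, 1.89, 1.86 and 2.55 in mice 1 to 5. Its mean was 1.94 ± 0.39 (SD, n = 5), a 3.85-fold difference between mouse and pool. All mice were far above 0, mouse 5 the most and mouse 2 the least. Only 0.278% of all genes and unnamed features had a higher mean.

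The atrial essential light chain Myl4 stood at 2.12, 0.84, 1.75, 1.59 and 1.56 in mice 1 to 5. Mouse 2 was lowest and mouse 1 highest, and the other mice lay within a narrow range between them. The mean was 1.57 ± 0.46 (SD, n = 5), a 2.97-fold difference. The atrial regulatory light chain Myl7 stood at 1.53, 0.58, 1.00, 0.68 and 0.94. Again mouse 1 was highest and mouse 2 lowest. The mean of Myl7 was 0.95 ± 0.37 (SD, n = 5), a 1.93-fold difference, and 3.7% of all genes and unnamed features had a higher mean.

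On the thin filament, cardiac actin, Actc1, stood at 2.19, 0.85, 1.28 and 1.87 in mice 1, 2, 4 and 5 and had no value in mouse 3. It followed the order of the light chains at its ends, with mouse 1 highest and mouse 2 lowest. Its mean was 1.55 ± 0.60 (SD, n = 4), a 2.92-fold difference. Skeletal alpha actin, Acta1, whose protein is almost the same, had a mean of -1.70 ± 1.56 (SD, n = 5). Whether the features of these related actins bind each other's transcripts was not tested.

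Troponin C of heart and slow muscle, Tnnc1, stood at -0.04, 0.40, 1.16, 0.95 and 0.83 in mice 1 to 5. Mouse 1, which was the highest for Myl4, Myl7 and Actc1, was the lowest here. The mean was 0.66 ± 0.48 (SD, n = 5), a 1.58-fold difference, and it was 0.84 without mouse 1. Fast skeletal troponin C, Tnnc2, had -5.50, -5.19, -0.04, -2.78 and -5.18 in the same mice.

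Myosin-binding protein C of the thick filament, Mybpc3, stood at 0.11, -0.15, 0.12, 0.09 and -0.01 in mice 1 to 5. The values straddled 0, with a mean of 0.03 ± 0.12 (SD, n = 5). Sarcolipin, Sln, stood at 0.02, -0.07, 0.06 and -0.07 in mice 2 to 5 and had no value in mouse 1. It straddled 0 as well, with a mean of -0.01 ± 0.07 (SD, n = 4) that turned positive without mouse 3 or mouse 5 (0.0037 and 0.005). Both genes had a range across mice (0.273 for Mybpc3 and 0.13 for Sln) below that of any of the other 6.

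The natriuretic peptide precursor Nppb stood at -1.22, -2.17, -1.19, -0.88 and -1.08 in mice 1 to 5. All mice were well below 0, and mouse 2 was farther from the others than they were from each other. The mean was -1.31 ± 0.50 (SD, n = 5), a 2.48-fold difference, and it was -1.09 without mouse 2. Of all genes and unnamed features, 1.29% had a lower mean.

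**Figure D2:**
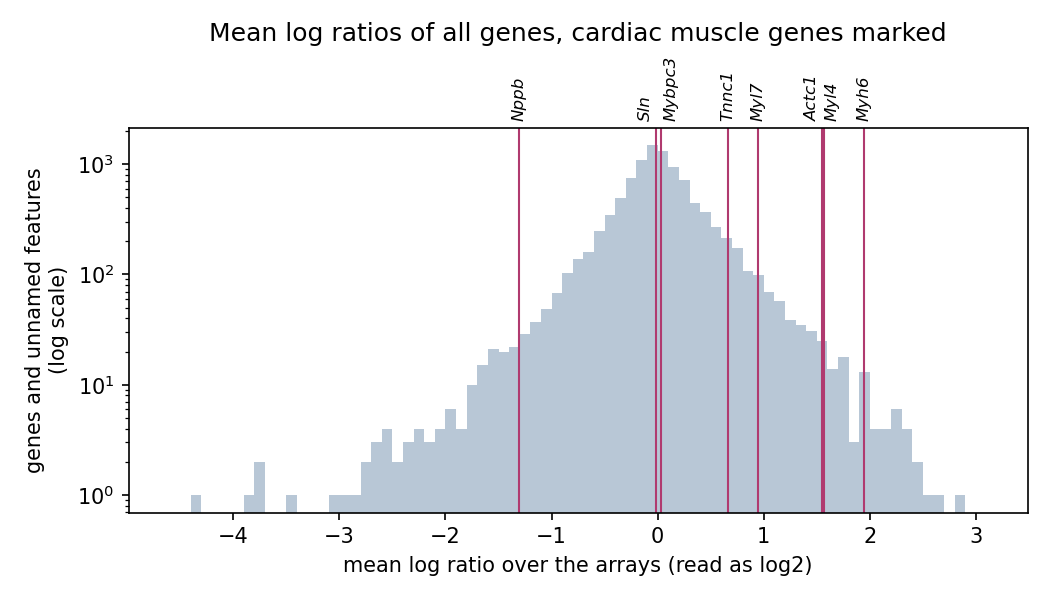
Number of genes and unnamed features (vertical axis, log scale) at each mean log ratio over the arrays (horizontal axis, read as log2), with the means of the 8 cardiac muscle genes as vertical lines. Myh6, Myl4 and Actc1 lie in the upper tail, Nppb in the lower tail, and Mybpc3 and Sln in the centre.

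By mean ratio the order was Myh6, Myl4, Actc1, Myl7, Tnnc1, Mybpc3, Sln and Nppb. These are ratios to the pool and say nothing of which transcript was more abundant. Differences between these genes were not tested. Within mice, the ratio of Myh6 exceeded that of Myl4 by 0.37 ± 0.45 (SD of the difference) and was higher in 4 of 5 mice. Myl4 and Actc1 differed by -0.02 ± 0.26 in the 4 mice that had both, with Myl4 higher in 1 of 4. Their order by mean is thus not that within mice, as Actc1 had no value in mouse 3. Actc1 exceeded Myl7 by 0.61 ± 0.27, in 4 of 4 mice. Myl7 and Tnnc1 differed by 0.28 ± 0.74, with Myl7 higher in 3 of 5 mice. Tnnc1 exceeded Mybpc3 by 0.63 ± 0.47, in 4 of 5 mice. Mybpc3 and Sln differed by 0.02 ± 0.15. Sln exceeded Nppb by 1.32 ± 0.59, in 4 of 4 mice.

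Mouse 2 gave the lowest value of 6 of the 8 genes, namely Myh6, Myl4, Actc1, Myl7, Mybpc3 and Nppb. Mouse 1 gave the highest value of 3 of them. Over the 6 genes with values in all 5 mice, a choice made after seeing the data, the median was 0.82, 0.49, 1.07, 0.82 and 0.89 in mice 1 to 5, lowest in mouse 2. Medians of all genes and unnamed features were within 0.0055 of 0. The SD of all log ratios on an array was smallest for mouse 2 (0.489) and largest for mouse 1 (0.595). Outside the set, mouse 2 was lowest for 5 of 6 smooth muscle genes, but for 3 of 15 other sarcomere and 2 of 21 skeletal genes. Whether the order of mice in the set goes beyond that of the whole array was not tested. The median over the means of the 8 genes was 0.80, and over all genes and unnamed features -0.0066.

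The other genes of the heart were taken from 5 lists of contraction, calcium handling and excitation, natriuretic peptide signalling, transcription factors and muscle energy metabolism. They were tested with limma (a moderated test of the mean log2 ratio against 0, Benjamini-Hochberg adjustment over all 10081, adjusted p under 0.05). This test passed 49.6% of all genes and unnamed features, 23.9% below 0 and 25.8% above 0. These shares are the background for the counts of each list. The lists were fixed with earlier results of these data known, so their counts and p-values are a description. Of the 71 tested genes on the 5 lists, 16 were above 0, 12 were below 0 and 43 missed the threshold. The median of their means was 0.015, beside -0.0066 over all genes and unnamed features. Among them 3 differed at least 2-fold, beside 5.68% of all genes and unnamed features. Because 1 pool served all arrays, control mice contribute no spread to the test. Counting the pool as 1 control mouse let 5.09% of all genes and unnamed features pass, 2.98% above 0 and 2.11% below 0, and of the 71 these were Asph and Gata6 above 0 and Fkbp1b below 0.

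**Figure D3:**
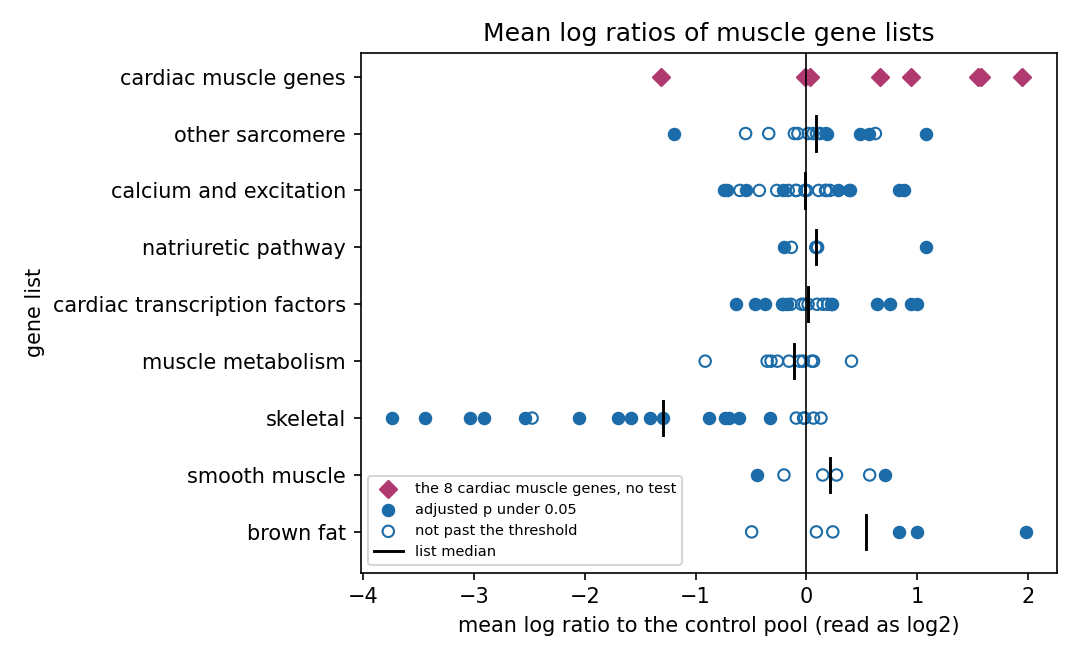
Mean log ratio to the control pool (horizontal axis, read as log2) of each tested gene of 8 lists and of the 8 cardiac muscle genes (rows). Filled circles passed limma's test and open circles did not, diamonds were not tested, and the black bar is the median of a list. The heart lists spread to both sides of 0, with medians between -0.109 and 0.091, while the skeletal list has a median of -1.30.

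Of 15 other sarcomere genes, 4 lay above 0, 1 lay below 0 and 10 did not pass, with a median of 0.09. Myoz2, calsarcin 1 of the Z-disc of heart and slow muscle, stood at 0.10, 1.25, 1.83, 0.96 and 1.25 in mice 1 to 5 (mean 1.08 ± 0.63, limma adjusted p = 0.00608). Like Tnnc1, it was lowest in mouse 1. Csrp3, a LIM protein of the Z-disc, had a mean of 0.57 ± 0.46 and Myom1, myomesin of the M-band, one of 0.48 ± 0.15 on 4 arrays. The LIM protein Fhl2 was at 0.19 ± 0.11. On the other side of 0 was desmin, Des, the intermediate filament of all muscle types, at -2.03, -1.85, -0.41, -0.34 and -1.34 in mice 1 to 5 (limma adjusted p = 0.00977). Without mouse 3, mouse 4 or mouse 5 the count above 0 was 2, and without mouse 1 or mouse 3 the count below 0 was 2.

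Myl3 and Ttn, both shared by heart and skeletal muscle, lay on both sides of 0. The light chain Myl3 of ventricle and slow muscle stood at -1.25, -1.23, 0.53, 0.14 and -0.93 in mice 1 to 5 (limma adjusted p = 0.145). It was above 0 in mice 3 and 4 and below 0 in the others, and passed without mouse 3 (mean -0.82, limma adjusted p = 0.0378). Titin, Ttn, the elastic filament of both muscles, averaged 0.09 ± 0.36 (limma adjusted p = 0.581) and -0.03 without mouse 3. Of the 15 genes, 12 had their lowest value in mouse 1, and 9 had their highest in mouse 3. The ventricular genes Myl2 and Myh7 had values on 1 array each, and the features of Tnnt2 and Tnni3, cardiac troponins T and I, had none, so these were not tested. For Actn2 no feature carried the symbol in the annotation as used here, so it could not be tested.

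Of 21 genes of calcium handling and excitation, 5 lay above 0, 4 below 0 and 12 did not pass, with a median of -0.01. Casq2, the cardiac calsequestrin that stores calcium in the reticulum, stood at 0.34, 0.41, 0.41, 0.43 and 0.36 in mice 1 to 5, with a mean of 0.39 ± 0.04 (limma adjusted p = 0.000644). It varied little between mice. Phospholamban, Pln, the relative of sarcolipin that restrains the calcium pump, had a mean of 0.38 ± 0.13 (limma adjusted p = 0.00244) and lay above 0 in all 5 mice, unlike Sln. Asph, whose locus also encodes junctin of the calcium release complex, had a mean of 0.83 ± 0.17. Popdc2, a cyclic AMP-binding membrane protein of heart and muscle, had a mean of 0.29 ± 0.16.

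Below 0 were Fkbp1b, which binds the cardiac ryanodine receptor, at -0.75 ± 0.08, the kinase Camk2d at -0.72 ± 0.26, the gap junction protein connexin 43, Gja1, at -0.55 ± 0.21, and the potassium channel Kcnh2 at -0.21 ± 0.10 (SD, n = 5 each). The call of Kcnh2 was lost without mouse 3 or mouse 4 (limma adjusted p = 0.0554 and 0.0508). The features of the calcium pump Atp2a2 had no values and the cardiac release channel Ryr2 had values on at most 2 arrays, so neither was tested.

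Connexin 45, Gjc1, stood at 1.21, 1.04, 1.61, 0.25 and 0.29 in mice 1 to 5, and the T-box factor Tbx20 at 1.04, 0.77, 1.29, 0.33 and 0.34. Both were high in mice 1, 2 and 3 and low in mice 4 and 5, an order that none of the 8 cardiac genes had. Their means were 0.88 ± 0.59 (limma adjusted p = 0.0112) and 0.75 ± 0.42 (limma adjusted p = 0.00572).

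For the pathway of Nppb, 6 of 12 listed genes were tested: 1 lay above 0, 1 below 0 and 4 did not pass, with a median of 0.09. Mme, neprilysin, a membrane protease that degrades natriuretic and other peptides, stood at 0.78, 1.25, 1.46, 0.97 and 0.93 in mice 1 to 5 (mean 1.08 ± 0.27, limma adjusted p = 0.000245). It was on the other side of 0 from Nppb in every mouse. Pde2a, a phosphodiesterase stimulated by cyclic GMP, had a mean of -0.20 ± 0.12, and its call was lost without mouse 1, mouse 2 or mouse 3 (limma adjusted p = 0.0665, 0.0812 and 0.081). Corin, the protease that cleaves the precursor of atrial natriuretic peptide, had a mean of 0.09 ± 0.11 (limma adjusted p = 0.243). The receptors Npr1 and Npr3 had values on 2 arrays each and were not tested. In the annotation as used here no feature carried the symbol Nppa or Npr2, so they could not be tested.

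Of 19 transcription factors and other regulators of heart development, 6 lay above 0, 6 below 0 and 7 did not pass, with a median of 0.02. Gata6, a factor of heart, airway and vascular cells, had a mean of 0.95 ± 0.10 on 4 arrays (limma adjusted p = 0.000144), and Irx5, an Iroquois factor, one of 1.00 ± 0.30. Irx3 had a mean of 0.63 ± 0.34. Gata5 had a mean of -0.63 ± 0.11 (limma adjusted p = 0.000215), and Zfpm2, a cofactor of GATA factors, one of -0.46 ± 0.21. Hand1 had a mean of -0.37 ± 0.23. Nkx2-5 and Gata4, the factors most tied to cardiac muscle, had means of 0.02 ± 0.12 and 0.15 ± 0.11 on 4 arrays each (limma adjusted p = 0.869 and 0.108), and that of Nkx2-5 turned negative without mouse 3 or mouse 4 (-0.0077 and -0.018). The count below 0 was 3 without mouse 2, mouse 3 or mouse 5. Tbx5 had values on 3 arrays and Mef2c on 1, and they were not tested.

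None of the 10 genes of muscle energy metabolism passed by limma, on either side of 0, with a median of -0.11. At an unadjusted p under 0.05 the count was also 0 on both sides, as it was by a plain one-sample test. Without mouse 3, 1 passed below 0, and without mouse 2, 1 passed above 0. The muscle creatine kinase Ckm stood at -2.71, -2.03, 1.23, 0.42 and -1.47 in mice 1 to 5, and the cytochrome oxidase subunit Cox8b of muscle and brown fat at -1.91, -0.57, 1.16, 1.22 and -0.04. These 2 genes fell outside the rule for named genes and were chosen after their values were seen. Both were below 0 in mice 1, 2 and 5 and above 0 in mice 3 and 4. The lowest value was in mouse 1 for 8 of the 10 genes.

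Genes of skeletal muscle, which lies next to the lung in the diaphragm and chest wall, were listed as those of another tissue that a lung sample can hold. This list too was fixed with earlier results of these data known, so its counts are a description. Of 21 tested, 15 lay below 0, 0 above 0 and 6 did not pass, with a median of -1.30. Of all genes and unnamed features, 23.9% passed below 0 and 25.8% above 0. The list median was -2.60, -1.25, -0.21, -0.33 and -1.02 in mice 1 to 5. It was farthest from 0 in mouse 1 and nearest to it in mouse 3. The count below 0 was 7 without mouse 2, 8 without mouse 5, and 0 with the pool counted as 1 control mouse (3 at an unadjusted p under 0.05). Above 0 the count was 0 at an unadjusted p under 0.05 too, by limma and by a plain one-sample test.

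**Figure D4:**
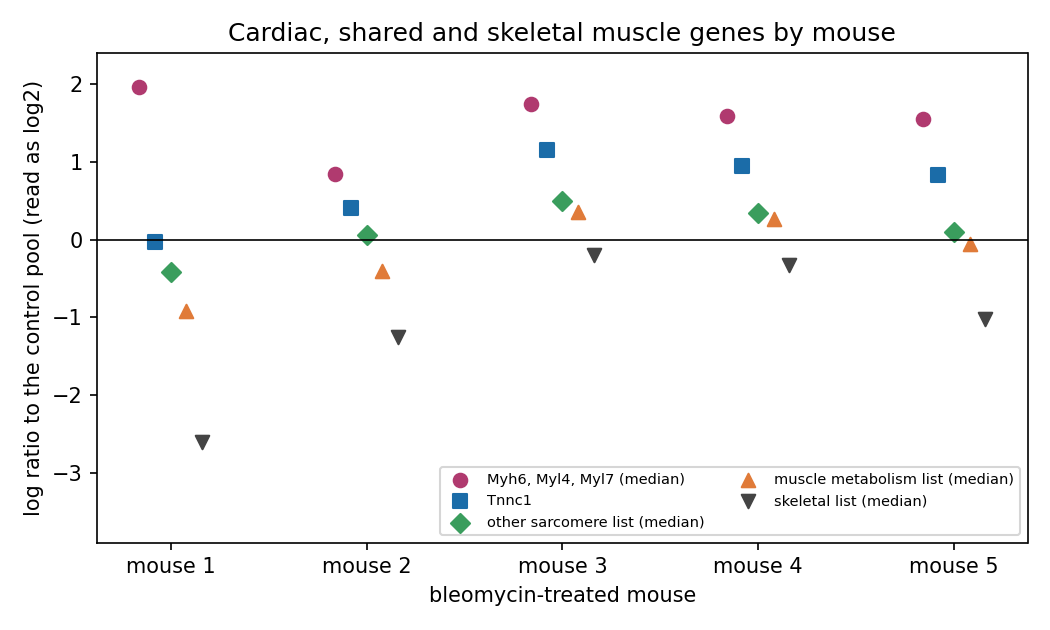
Log ratio to the control pool (vertical axis, read as log2) in each of the 5 mice (horizontal axis) for the median of Myh6, Myl4 and Myl7, for Tnnc1, and for the medians of the other sarcomere, muscle metabolism and skeletal lists. Tnnc1 and the 3 lists are lowest in mouse 1 and highest in mouse 3. The median of Myh6, Myl4 and Myl7 is lowest in mouse 2 and highest in mouse 1. Myh6 itself is highest in mouse 5, which this median does not show.

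Genes of the set differed in which mouse was highest. Tnnc1, with the medians of the other sarcomere, muscle metabolism and skeletal lists, was lowest in mouse 1 and highest in mouse 3. Myl4, Myl7 and Actc1 were highest in mouse 1, where the skeletal list was lowest. Myh6 was highest in mouse 5 (2.55, against 1.96 in mouse 1). The part of skeletal muscle RNA in the values of Tnnc1 was not tested.

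Genes with the most similar values over the 5 mice were sought among 7431 named genes with values on all arrays, by the root mean square difference of the 5 log2 ratios. The mean profile of the genes measured in each mouse, which leaves out Sln in mouse 1 and Actc1 in mouse 3, was 0.95, 0.23, 0.66, 0.71 and 0.82 in mice 1 to 5. The closest 10 were Caprin1, Zfp180, Ccser2, Egfl6, Vps45, C1qtnf3, Stx16, Ezh1, Rnpep and Zmym2, with differences from 0.0326 to 0.134. Over the 6 genes with values in all mice the profile was 0.74, 0.16, 0.79, 0.72 and 0.80, and 6 of its 10 closest genes, Egfl6, Vps45, Zfp180, Caprin1, Ezh1 and Zmym2, were shared with those. For Myl4 they were Tsc22d3, Ttc13 and Cyp2b10 (0.201 to 0.247), and for Myl7 Scube2, Cyp2b13 and Ltbp3 (0.104 to 0.142). For Myh6 they were Herpud1, Ptprm and Hsp90aa1 (0.288 to 0.36), and for Tnnc1 Chia1, Slc25a3 and Irx3 (0.185 to 0.206). For Nppb they were Ak1, Tmsb10 and Col15a1 (0.284 to 0.339), and for Mybpc3 Otof, Lrrc17 and Cilk1 (0.0523 to 0.0574). Apart from Irx3, none of these genes was on the lists of heart or other muscle. The share of listed genes among the candidates was not counted, so this says nothing of how the set relates to those lists. The genes of the cardiac set itself were left out of the candidates.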

How the data were processed

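Lung expression of 5 bleomycin-treated mice was measured on 2-colour arrays, each against a pool of control lung RNA, and the 5 arrays form 1 group. The authors deposited 1 log ratio per feature and array, taken here as log2; the sources used here name no log base, direction, dyes, scanner, normalization or genome build. Deposited medians were 0.011 to 0.026, and arrays were centred again on their medians. Features with values on at least 4 arrays were kept (10702 of 17280). Symbols came from the platform annotation and were updated through gene identifiers with RefSeq's GRCm38.p6 table (14445 of 14723 annotated features). Features of 1 symbol were averaged.

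Testing of means against 0 used limma 3.58.1 (R 4.3.3, intercept-only model, empirical Bayes, two-sided, Benjamini-Hochberg over all 10081). The code was run on simulated data of independent genes without a shared pool, so that check does not cover the error from the pool. The smallest p of an exact sign-flip test with 5 arrays is 0.0625, so p-values depend on the model. Beyond tissue, treatment and strain, the labels say no more of the mice than their numbers. The p-values rest on the spread between these arrays and not on that between control mice. Named genes were those of the heart set, at most 6 list genes past the threshold on each side, a set of heart, skeletal and smooth muscle markers, and the genes closest in profile. The genes and lists were chosen with earlier results of these data known. Alternatives changed the centring, the minimum of arrays, the treatment of several features, the symbols, the variance of the test and the mice included.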

Additional observations from a re-analysis of the deposited data

Results flagged for a closer look

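Of 88 sets of values by mouse (the 8 cardiac genes, the named genes and the list medians), 7 had 1 mouse set apart from the others by a gap of a size that chance gives in about 1 in 20. Nppb stood at -2.17 in mouse 2, against -1.22 to -0.88 in the other mice. Camk2d stood at -1.19 in mouse 4, against -0.65 to -0.58 in the others. Hand1 stood at 0.02 in mouse 3, against -0.52 to -0.39 in the others. In mouse 2, Egfl6 stood at 0.24, Vps45 at 0.15, Ttc13 at 1.04 and Herpud1 at 1.44, all below the other mice. These last 4 genes were chosen for a likeness to profiles in which mouse 2 is lowest.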

How the results depend on the processing

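The means of 7 of the 8 cardiac genes kept their side of 0 and moved by less than 1 SD between mice under every centring, filter, feature, symbol and leave-one-out setting in which they had a value. Sln, near 0, turned to 0.00275 without centring, to 0.00367 without mouse 3 and to 0.005 without mouse 5. Without 1 mouse, the means ranged from 1.79 to 2.06 for Myh6, 1.43 to 1.75 for Myl4, 0.80 to 1.04 for Myl7 and -0.038 to 0.005 for Sln. Read as natural logarithms, the folds would be 6.99 for Myh6, 4.81 for Myl4, 4.697 for Actc1, 2.57 for Myl7 and 3.702 for Nppb.

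With the pool counted as 1 control mouse, 213 genes passed below 0 and 300 above 0 on the whole array, against 2406 and 2596. The counts below and above 0 became 0 and 0 for other sarcomere, 1 and 1 for calcium and excitation, 0 and 0 for the natriuretic pathway, 0 and 1 for transcription factors, 0 below 0 for skeletal, and 0 and 0 for smooth muscle genes. Of 64 named genes past the threshold, 52 no longer passed. With a plain one-sample test, counts were 0 below and 2 above 0 for other sarcomere, 3 below for transcription factors, 4 below for skeletal and 0 below for smooth muscle genes. It left out 16 of the 64, Des, Gjc1, Csrp3, Tnnc2, Myh8, Myh2, Acta1 and Tnni2 among them.

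Without 1 mouse, counts ranged from 1 to 2 below and 2 to 6 above for other sarcomere, 0 to 1 below for the natriuretic pathway, 3 to 5 below for transcription factors, 0 to 1 on each side for muscle metabolism, 7 to 16 below for skeletal, 0 to 1 below and 1 to 2 above for smooth muscle, and 0 to 1 below for brown fat. Medians turned to 0.0012 for calcium and excitation without centring, and ranged from -0.0077 to 0.073 for transcription factors and from -0.31 to 0.056 for muscle metabolism without 1 mouse. With features on all 5 arrays, the median was 0.096 for transcription factors and -0.20 for smooth muscle. With features on at least 3 arrays, 1 muscle metabolism gene passed above 0, and without centring 2 smooth muscle genes did. Means turned for Ttn (-0.033 without mouse 3; range without 1 mouse -0.033 to 0.217), Nkx2-5 (-0.0077 without mouse 3, -0.018 without mouse 4; -0.018 to 0.073) and Otof (-0.0323, -0.00375 and -0.0035 without mouse 1, 3 and 4; -0.0323 to 0.0437). Some of these settings use fewer arrays or genes, and the cause of the changes was not tested. No paired analysis was possible because the arrays form 1 group against a common pool.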

Other observations

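Smooth muscle genes mark airway and vessel walls and myofibroblasts. Of 6 tested, 1 passed above 0, beside 25.8% of all genes and unnamed features, and 1 below 0, beside 23.9%. The list median was 0.21, but -0.20 with features on all 5 arrays. Neither call held with the pool counted as 1 control mouse (limma adjusted p = 0.225 for Acta2 and 0.445 for Tagln). Smooth muscle actin, Acta2, stood at 0.60, 0.23, 0.68, 0.97 and 1.07 in mice 1 to 5 (limma adjusted p = 0.00288), lowest in mouse 2 as the cardiac light chains were. Transgelin, Tagln, had a mean of -0.44 ± 0.34 (limma adjusted p = 0.0205), and its call was lost without mouse 1, 2 or 3 (limma adjusted p from 0.0573 to 0.0692). Smooth muscle myosin, Myh11, had values on 2 arrays and was not tested.

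Brown fat genes had 3 of 6 tested above 0 and 0 below 0 by limma, with a median of 0.54. Of all genes and unnamed features, 25.8% passed above 0 and 23.9% below 0. At an unadjusted p under 0.05, 1 brown fat gene was below 0 by limma, and 0 by a plain one-sample test. The brown fat list was also fixed with earlier results of these data known, so its counts and p-values are a description. Ucp1, the uncoupling protein that makes heat in brown fat, stood at 2.55, 2.25, 2.09, 1.68 and 1.34 in mice 1 to 5 (limma adjusted p = 0.000154). It lay on the side of Myh6 and at a similar distance from 0, but its lowest value was in mouse 5, where Myh6 was highest. Cidea, a lipid droplet protein, had a mean of 1.00 ± 0.16 (limma adjusted p = 7.69e-05), and Car3, carbonic anhydrase 3 of fat and slow muscle, one of 0.83 ± 0.39. With the pool counted as 1 control mouse, Ucp1 and Cidea still passed and Car3 did not (limma adjusted p = 0.217). The 3 that did not pass, which fell outside the rule for named genes, were Dio2 (-0.49 ± 0.58), Adipoq (0.24 ± 0.61) and Ppargc1a (0.09 ± 0.12). Dio2 and Adipoq were each below 0 in 3 mice and above 0 in 2.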
